A study of Mus musculus with 10 samples.

Results

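*Hes1*, *Hes5*, *Hes6*, *Hey1*, *Heyl*, *Nrarp* and *Dtx1* were followed as readouts of Notch signaling in early T cell precursors. They were taken by symbol as a short list of genes known to respond to Notch, and all 7 were present among the 24062 genes listed in each of 10 mouse RNA-seq libraries. The cells were Lin-SCA1+KIT+ (LSK) stem and progenitor cells from the marrow of C57BL/6J mice, whose age is not given in the sources used here, cultured with 4 growth factors (SCF, FLT-3 ligand, IL-6 and IL-11, together called 4GF) on an immobilized coat. DN1 cells (KIT++CD44+CD25-, 2 libraries) came from 4GF cultures on a high density of the Notch ligand Delta1 (Delta1ext-IgG, coated at 5 µg/mL) without IL-7. DN2a cells (KIT++CD44+CD25+, 2 libraries) and DN2b cells (KIT+CD44loCD25+, 2 libraries) came from such cultures with 100 ng/mL IL-7 added, so that stage and IL-7 change together. The no Notch control (IgG, 4 libraries) was grown on 5 µg/mL human IgG1 and labelled day 14. IL-7 was added to the Delta1 cultures at day 14. Neither the harvest day of the DN cells nor the IL-7 status of the control is given in the sources used here. In the differences from the control, Notch therefore cannot be told apart from culture time or, in DN2a and DN2b, from IL-7. DN cells were sorted on KIT, CD44 and CD25, whereas no sort is described for the control cultures, and the ligand was plate-bound in the absence of a thymus or stroma. Libraries of a stage are named here as replicate 1 and replicate 2, after the earlier and the later year in their labels, and the control libraries D1, D2, R1 and R2 as IgG replicates 1 to 4.

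Notch receptors are cut after they bind a Delta or Jagged ligand on a neighbouring surface. The released intracellular domain joins the DNA-binding protein RBPJ and a Mastermind coactivator in the nucleus, and the complex switches on genes that RBPJ otherwise holds silent. Hes and Hey genes encode basic helix-loop-helix repressors that relay the signal, while *Nrarp* and *Dtx1* encode proteins that act back on Notch itself. In the thymus this pathway directs blood progenitors into the T lineage and away from myeloid and B cell fates.

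The promoters of 4 of the 7 members, *Hes5*, *Hes6*, *Nrarp* and *Dtx1*, were matched by symbol in the set of RefSeq promoters (GRCm38.p6) at hand. They are shown because RBPJ is recruited to such regions when Notch is active. Those of *Hes1*, *Hey1* and *Heyl* were missing from that set and were not searched. Each is the stretch of 250 bases ahead of an annotated start, written 5′ to 3′ on the strand of the gene, with the core letters of the RBPJ site (TGGGAA or its complement) in capitals. For *Hes6* the window shared by 4 annotated transcripts is printed.
Hes5 chr4:154960673-154960922 (+): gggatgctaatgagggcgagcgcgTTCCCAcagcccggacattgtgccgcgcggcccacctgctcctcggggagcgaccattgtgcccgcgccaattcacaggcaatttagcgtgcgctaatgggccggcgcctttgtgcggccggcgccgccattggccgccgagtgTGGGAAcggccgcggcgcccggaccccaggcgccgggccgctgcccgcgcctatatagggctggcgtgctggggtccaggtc
Nrarp chr2:25180508-25180757 (+): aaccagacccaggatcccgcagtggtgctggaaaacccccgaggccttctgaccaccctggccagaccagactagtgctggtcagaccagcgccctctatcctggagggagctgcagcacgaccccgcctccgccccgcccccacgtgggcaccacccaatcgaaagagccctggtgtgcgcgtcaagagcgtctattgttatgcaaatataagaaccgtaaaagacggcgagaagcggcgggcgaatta
Dtx1 chr5:120711670-120711919 (-): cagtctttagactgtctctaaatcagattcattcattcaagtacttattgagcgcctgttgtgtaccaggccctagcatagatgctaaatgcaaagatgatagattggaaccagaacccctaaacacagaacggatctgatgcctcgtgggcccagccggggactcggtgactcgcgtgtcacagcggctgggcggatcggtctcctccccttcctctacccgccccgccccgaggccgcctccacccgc
Hes6 chr1:91413223-91413472 (-): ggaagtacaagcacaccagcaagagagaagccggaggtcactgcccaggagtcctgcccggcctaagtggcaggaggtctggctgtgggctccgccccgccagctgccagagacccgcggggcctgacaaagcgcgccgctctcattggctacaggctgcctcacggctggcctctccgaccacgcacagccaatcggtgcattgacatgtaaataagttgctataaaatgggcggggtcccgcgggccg

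Both strands were searched for TGGGAA. The window of *Hes5* held 2 matches on opposite strands, whose leftmost letters lay 226 and 82 bases ahead of the start, and the windows of *Nrarp*, *Dtx1* and *Hes6* held none. Among 32851 RefSeq promoter windows of the same length, 21.6% held at least 1 match and 2.77% held 2 or more. CACGNG, letters found in many sites bound by Hes and Hey proteins, occurred once ahead of *Nrarp* (108 bases from the start), at 2 places ahead of *Dtx1* (107 and 77 bases), and in 23.5% of all windows. A second *Hes6* window (chr1:91414039-91414288) also held 1 such match, and no window shown held both motifs, so that the matches did not overlap. By the ratio of observed to expected CpG, the windows stood at 1 for *Hes5*, 0.776 for *Nrarp*, 0.772 for *Dtx1* and 0.664 for the printed *Hes6* window, against a median of 0.374 over all windows. The start used for *Dtx1* lies 258 bases from the nearest GENCODE start, and a match is a string of letters, not a measured binding site.

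Read depth on genes lay between 12354635 and 35367925 reads per library, so that 3 counts, taken as the limit of detection, equalled 0.0848 to 0.243 CPM (read counts scaled to the same total of reads on genes per library). Marker genes followed the labels. Summed over 7 T lineage markers, expression was 1.41 to 5.58 CPM in the control, 89.5 to 210.2 in the DN1 libraries, 994 to 1450 in those of DN2a, and 2652 to 3520 in those of DN2b. The control cultures carried 14306 to 43841 CPM of 6 neutrophil markers and 1889 to 5020 CPM of 6 macrophage markers. In the DN libraries these sums were 0.715 to 1792 and 10.6 to 94.7 CPM, the highest of each in DN1 replicate 1. In bulk RNA, fewer cells of a type cannot be told apart from less RNA per cell, and this holds for every difference from the control given below.

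Compared with the no Notch control, 6 of the 7 members were higher in DN1, in DN2a and in DN2b, and *Hes5* had too few counts to be tested. The fitted fold was 246 to 322 for *Hes1* and 128 to 208 for *Dtx1* across the stages, and about 2 for *Hes6*, while that of *Heyl* is not fixed by its 1 control read. Called here means an adjusted p below 0.05 in the quasi-likelihood test of edgeR, with Benjamini-Hochberg adjustment over 12221 genes. In DN1 6 of 6 tested members were called higher, where 14.3% of all tested genes were. The count was 6 of 6 in DN2a (21.2% of all genes called higher) and 6 of 6 in DN2b (19.9%). Of the 6, *Hes1*, *Dtx1*, *Hey1* and *Heyl* needed the DN libraries, where they were high, to pass the filter on low counts, and *Hes6* and *Nrarp* would have passed on control libraries alone. With no filter 6 members were also called in each stage. The counts and medians over the members are therefore a description and no support. All 6 had every DN library of the stage above every control library, a pattern found in 31.3%, 31.7% and 29.7% of all tested genes for DN1, DN2a and DN2b. The members had a median log2FC of 5.89 (DN1), 5.26 (DN2a) and 6.01 (DN2b), while the medians over all tested genes were 0.010, -0.048 and -0.047. Without *Heyl* the members' medians were 6.15, 6.08 and 5.69, so that the order of the stages changed. With *Heyl*, which has a single read in the control, placed at the lower counting limit of its ratio, they were 5.15, 4.63 and 5.08. The 3 comparisons share the same 4 control libraries and are not independent of each other. Without DN1 replicate 1, 3 members were called in DN1 (*Hes1*, *Nrarp* and *Dtx1*) and *Heyl* fell below the filter, and with control libraries D1 and D2 alone the same 3 were called. Scaling to library size alone moved the median of all genes from 0.010 to 0.27 in DN1 over the control and left all 6 members called. Neutrophil and macrophage signal was higher in the control. Of 4 NK and innate lymphoid markers, *Gzma* was at 0.0848 to 0.485 CPM in the control and 220.6 to 4053 in DN libraries and carried nearly all of their sum, while *Ncr1*, *Eomes* and *Klrb1c* stayed under 5 CPM in every library. Of 5 mast cell and basophil markers, *Cpa3* was higher in every DN library (250.2 to 1175 CPM against 8.26 to 59.4). *Ms4a2* was at 147.0 and 44.9 CPM in DN1 against 1.10 to 8.62 in the control, and at most 1.13 in DN2a and DN2b. *Mcpt8* was at 24.9 and 7.90 CPM in DN1 and 0.911 to 7.33 in DN2a and DN2b, against 17.7 to 58.7 in the control. *Tpsb2* and *Prss34* were lower in every DN library than in any control. Signals of other cells thus differed between DN and control libraries along with the members, and their part in the differences was not tested.

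**Figure D1:**
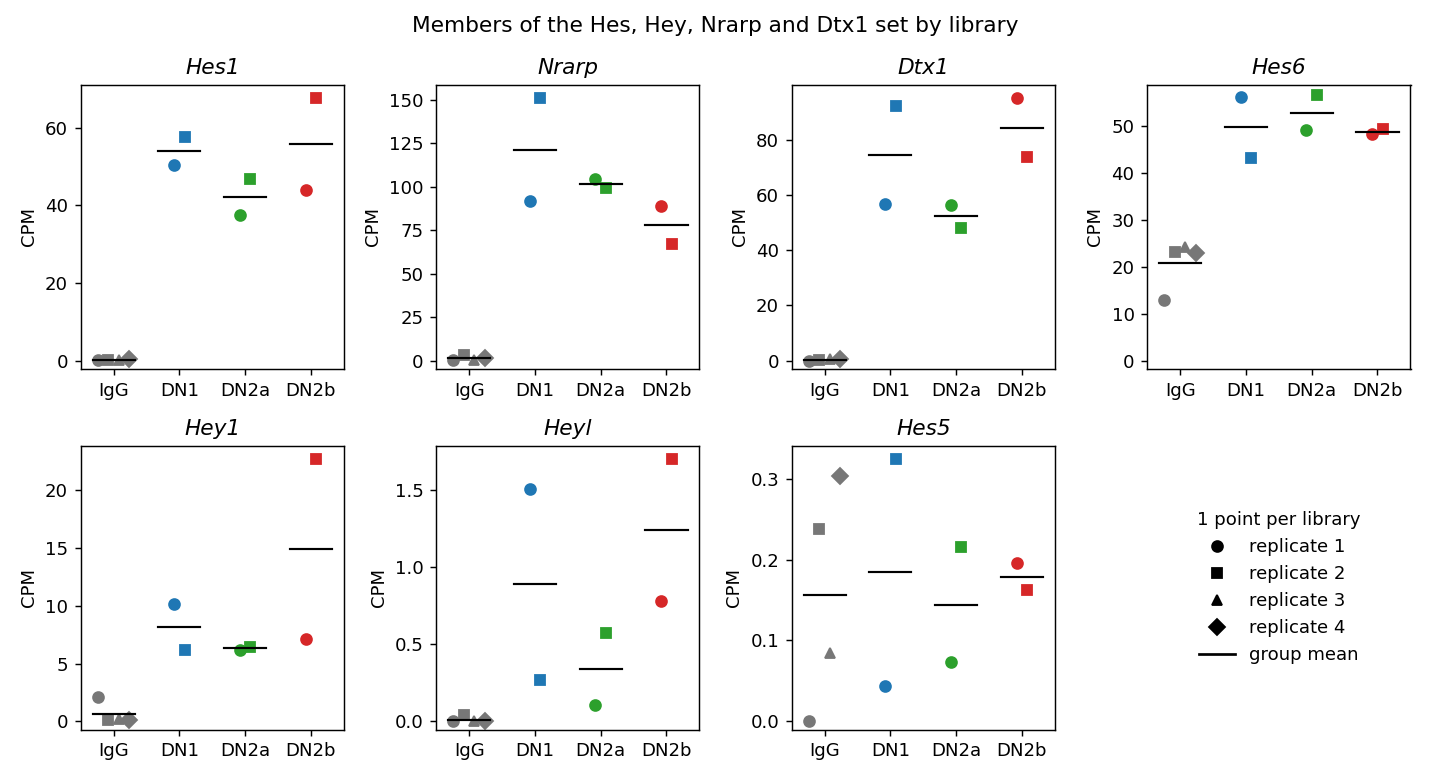
Expression of the 7 members in CPM (y axis, 1 panel per gene, each with its own scale from 0) in each of the 10 libraries, grouped by IgG control, DN1, DN2a and DN2b. Circles are replicate 1, squares replicate 2, triangles and diamonds the further control replicates, and bars group means. For every member except *Hes5* the DN libraries lie above the 4 control libraries.

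*Hes1* (chromosome 16, 30064384 to 30067796), the repressor most widely used as a readout of Notch, was at 50.3 and 57.5 CPM in DN1, 37.5 and 46.9 in DN2a, and in DN2b 44.0 and 67.7. In the control it was at 0.0485, 0.198, 0.0565 and 0.337 CPM, which are 1, 5, 2 and 10 reads. The control was thus at or near the limit of detection, and no DN library came close to it. The log2FC over the control was 8.10 in DN1 (standard error 0.51, adjusted p = 5.42e-05), 7.94 in DN2a (standard error 0.51, adjusted p = 2.15e-05) and 8.33 in DN2b (standard error 0.51, adjusted p = 1.74e-05, edgeR). With each library left out in turn, the DN1 value stayed between 7.77 and 8.67.

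Both members that act back on Notch were also far higher than in the control. *Nrarp* (chromosome 2, 25180758 to 25183339) encodes an ankyrin-repeat protein that binds the Notch complex and dampens it, and was at 91.7 and 150.9 CPM in DN1, 104.3 and 99.0 in DN2a, and in DN2b 88.7 and 66.9. Its control libraries were uneven, at 0.242, 3.40, 0.254 and 1.75 CPM, with replicates 2 and 4 well above replicates 1 and 3, but all lay far below the DN libraries. The log2FC was 6.15 in DN1 (standard error 0.87, adjusted p = 0.00143), 6.08 in DN2a (standard error 0.86, adjusted p = 8.38e-04) and 5.69 in DN2b (standard error 0.85, adjusted p = 0.00113, edgeR). An antisense gene, *Gm38287*, overlaps *Nrarp* on the other strand, and since the strand setting of the counting is not given in the sources used here, reads of the 2 cannot be told apart.

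*Dtx1* (chromosome 5, 120680202 to 120711927), which encodes the ubiquitin ligase Deltex 1 that binds intracellular Notch, was at 56.5 and 92.2 CPM in DN1, 56.4 and 48.1 in DN2a, and in DN2b 95.1 and 73.7. No read was found in IgG replicate 1, and the other controls were at 0.316, 0.650 and 0.506 CPM. The DN and control libraries did not overlap. The log2FC was 7.34 in DN1 (standard error 0.63, adjusted p = 1.70e-04), 7.00 in DN2a (standard error 0.63, adjusted p = 1.24e-04) and 7.70 in DN2b (standard error 0.64, adjusted p = 6.78e-05, edgeR). The calls of *Hes1*, *Nrarp* and *Dtx1* over the control held in all 10 fits that each left out 1 library (leave-one-out fits) and in all 8 other settings.

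*Hes6* (chromosome 1, 91411483 to 91414038) differs from the other Hes genes in that its protein can oppose HES1 and has been described as acting outside the usual Notch response. It was the only member well expressed without Notch, at 12.9, 23.0, 24.3 and 22.9 CPM in the control. In the DN libraries it stood at 56.2 and 43.2 CPM in DN1, 49.1 and 56.5 in DN2a, and in DN2b 48.1 and 49.2, a narrow band above all controls. The log2FC was 0.99 in DN1 (standard error 0.25, adjusted p = 0.0175), 1.28 in DN2a (standard error 0.25, adjusted p = 0.00359) and 1.16 in DN2b (standard error 0.25, adjusted p = 0.0063, edgeR). The DN1 call was lost without DN1 replicate 1 (adjusted p = 0.0869).

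*Hey1* (chromosome 3, 8663359 to 8667256) and *Heyl* (chromosome 4, 123233556 to 123249875) encode repressors related to HES1 that are known as Notch targets in vessels. *Hey1* was at 10.2 and 6.22 CPM in DN1, 6.19 and 6.47 in DN2a, and in DN2b 7.15 and 22.7. In the control it was at 2.13, 0.119, 0.226 and 0.101 CPM, so that IgG replicate 1 stood well above the other controls but below every DN library, while DN2b replicate 2 stood far above the other DN libraries. Its log2FC was 3.35 in DN1 (standard error 1.09, adjusted p = 0.0433), 3.18 in DN2a (standard error 1.09, adjusted p = 0.0388) and 4.40 in DN2b (standard error 1.11, adjusted p = 0.0123, edgeR). These calls were the least stable of the set. In DN1 the call held in 2 of 10 leave-one-out fits, those without DN2b replicate 1 or IgG replicate 1, and without the latter the log2FC was 5.46, with 5.30 in DN2a and 6.52 in DN2b. In the other 8 fits the adjusted p lay between 0.0509 without DN2b replicate 2 and 0.129 without DN1 replicate 1. The DN2a call was lost without DN2a replicate 1 (adjusted p = 0.114) or 2 (0.115), or without IgG replicate 2 (0.0653), 3 (0.0891) or 4 (0.0656), and the DN2b call without DN2b replicate 2 (0.0774).

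*Heyl* rests on few reads. DN1 held 34 and 5 reads (1.502 and 0.270 CPM), DN2a 3 and 8 (0.109 and 0.575 CPM), and DN2b 12 and 21 (0.781 and 1.70 CPM). The 4 control libraries together held 1 read, in replicate 2. It passed the filter for testing only through DN1 replicate 1 and DN2b replicate 2, the 2 libraries at or above 1 CPM, so that its difference from the control was in part set by the filter. Summed over libraries, the ratio to the control was 105.2 in DN1 (95% counting interval 17.8 to 4261), 29.5 in DN2a (4.29 to 1270) and 132 in DN2b (22.1 to 5372). These exact intervals cover counting error only. The adjusted p was 0.0112 in DN1, 0.0246 in DN2a and 0.00477 in DN2b (edgeR), and *Heyl* could not be tested without either of its 2 highest libraries. In the remaining 8 leave-one-out fits, the DN2a call was lost without DN2a replicate 2 (adjusted p = 0.205), IgG replicate 3 (0.0638) or IgG replicate 4 (0.0581).

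*Hes5* (chromosome 4, 154960923 to 154962371), a Hes repressor that responds to Notch in the nervous system, stayed near the limit of detection in every group. DN1 held 1 and 6 reads of it, DN2a 2 and 3, DN2b 3 and 2, and the control libraries 0, 6, 3 and 9, at most 0.325 CPM. The groups overlapped. On a log2(CPM + 1) scale the 6 DN libraries differed from the 4 controls by 0.019 (two-sided exact permutation test, p = 0.852, where the smallest p that 210 splits allow is 0.00476). Per the methods, the DN stages were isolated from each LSK replicate, though isolates are not named per library. The DN libraries were treated as separate samples, so that this test counts related libraries as independent. Since *Gm20421* overlaps *Hes5* on the opposite strand, part of these reads may not belong to *Hes5*. Summed over libraries, the ratio to the control was 1.05 in DN1 (95% counting interval 0.370 to 2.63), 0.745 in DN2a (0.216 to 2.08) and 1.11 in DN2b (0.323 to 3.11). These intervals cover counting error only, and a difference within them was not detectable at this depth.

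**Figure D2:**
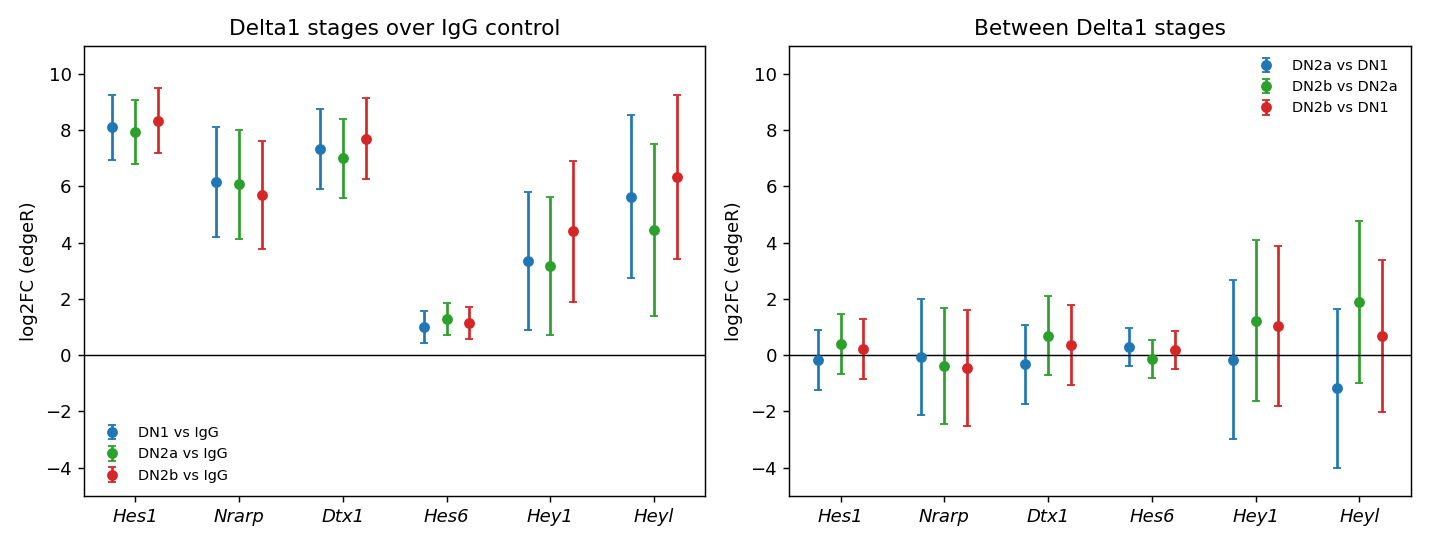
Log2FC (y axis, edgeR) of the 6 tested members in each stage over the IgG control (left) and between stages (right), with bars for 95% intervals. Over the control every interval lies above 0, and between stages every interval includes 0.

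Between the DN stages no member passed the test, although stages could differ by more than these libraries would show. In DN2a over DN1 0 of 6 members were called, against 0.401% of all tested genes. In DN2b over DN1 it was 0 of 6 against 1.91%, and in DN2b over DN2a 0 of 6 against 0%. In the last of these edgeR called 0 genes in all, with 335 at an unadjusted p under 0.05, and DESeq2 called 29. At an unadjusted p under 0.05 the members numbered 0 in each of the 3 comparisons, and DESeq2 also called 0. *Hes1* changed by -0.16 in DN2a over DN1 (95% interval -1.23 to 0.91) and by 0.23 in DN2b over DN1 (-0.84 to 1.30).

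*Nrarp* was lowest in DN2b, whose libraries (88.7 and 66.9 CPM) both lay below those of DN1 and of DN2a. With TMM scaling DN2b replicate 1 (90.98) lay above DN1 replicate 1 (76.95), so that DN2b and DN1 overlapped. Its log2FC in DN2b was -0.46 over DN1 (95% interval -2.53 to 1.61) and -0.38 over DN2a (-2.45 to 1.68), and without DN1 replicate 2 the first became 0.029. *Dtx1* ran the other way, lowest in DN2a and higher in both DN2b libraries (95.1 and 73.7 CPM) than in either DN2a library (56.4 and 48.1 CPM). The log2FC was 0.70 (95% interval -0.72 to 2.11). *Hes6* had the tightest intervals, with 0.29 in DN2a over DN1 (-0.38 to 0.97) and 0.17 in DN2b over DN1 (-0.51 to 0.84), and the second was -0.030 with scaling to library size.

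*Hey1* and *Heyl* were higher in both DN2b libraries than in either DN2a library, with log2FC of 1.22 (95% interval -1.64 to 4.08) and 1.87 (-1.01 to 4.76). Without DN2b replicate 2 the value of *Hey1* was 0.20, and *Heyl* could not be tested. Counting libraries that do not overlap, 3 members were higher (*Hey1*, *Heyl*, *Dtx1*) and 1 lower (*Nrarp*) in DN2b than in DN2a, while 14.5% and 16.1% of all tested genes did so. In DN2a against DN1, 2 were lower (*Hes1* and *Dtx1*; 31.7% of all genes), and in DN2b against DN1, 1 was lower (*Nrarp*; 32.4%). These 3 non-overlaps were seen on CPM alone, and with the TMM scaling of the test the libraries of all 3 overlapped. With 2 libraries a stage such patterns are common among all genes. The spread was estimated over all 10 libraries. In a fit of the 6 DN libraries alone, the standard error of *Nrarp* in DN2b over DN1 was 0.32 instead of 0.92 and that of *Hes1* 0.29 instead of 0.48, and still 0 members were called in any stage comparison. Scaling to library size moved the median log2FC of all genes to -0.22 in DN2a and -0.21 in DN2b over DN1, from -0.029 and -0.023.

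Per kilobase of exon, the only scale on which genes can be set beside each other, *Nrarp* ranked first among the members by the mean of each DN stage. In DN1 the mean level was 47.0 CPM per kb for *Nrarp*, 27.5 for *Hes6*, 26.5 for *Hes1*, 14.1 for *Dtx1*, 2.52 for *Hey1*, 0.173 for *Heyl* and 0.135 for *Hes5*. *Hes6* and *Hes1* were neighbours whose libraries overlapped there. In DN2b the order of means was *Nrarp* (30.1), *Hes1* (27.4), *Hes6* (26.9) and *Dtx1*, with the first 3 close together. In DN2b replicate 2 *Hes1* (67.7 CPM over 2.037 kb) stood above *Nrarp* (66.9 CPM over 2.582 kb). In the control *Hes6* led with 11.5 CPM per kb, and no other member reached 1, *Nrarp* being next at 0.547. Feature lengths are those of GENCODE vM21, since the annotation behind the counts is not given in the sources used here.

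Markers of other cells moved with some members inside the DN groups. Endothelial markers (*Cdh5*, *Kdr*, *Tek*, *Tie1* and *Emcn*) summed to 97.5 CPM in DN2b replicate 2. This library also had the most *Hey1* (22.7 CPM), *Heyl* (1.70 CPM) and *Hes1* (67.7 CPM). The sum was 0.781 CPM in DN2b replicate 1, 4.33 and 32.8 in DN1, 2.95 and 6.40 in DN2a, and 11.1 to 16.4 in the control. In DN2b replicate 2, *Kdr* was at 42.9, *Tie1* at 24.6, *Tek* at 16.3 and *Cdh5* at 13.8 CPM, 4 of the 5 markers, and *Emcn* was at 0. The markers did not move as a block. The control sum was mostly *Kdr* (5.58 to 15.8 CPM) and *Tie1* (0.194 to 7.95), while *Cdh5* was at 0.145 to 0.424 CPM and *Tek* at 0.0283 to 0.242. In DN1 replicate 1, where *Hey1* was 10.2 and *Heyl* 1.502 CPM, *Cdh5* was at 0, *Tie1* at 0.353, *Kdr* at 1.24 and *Tek* at 2.74 CPM. In DN1 replicate 2, where *Hey1* was 6.22 and *Heyl* 0.270 CPM, the same markers were higher, at 5.08, 9.09, 13.5 and 5.03 CPM. *Nrarp* in DN2b replicate 2 was the lowest of all DN libraries. Without DN2b replicate 2 the log2FC of *Hey1* in DN2b over the control was 3.39, and the part of the endothelial signal in these levels was not tested. DN1 replicate 1 carried the most neutrophil (1792 CPM) and mast cell and basophil (1351 CPM, mostly *Cpa3*) marker signal of the DN libraries. Erythroid and megakaryocyte markers summed to 651.9 CPM there against 19.3 to 138.8 in the other DN libraries. *Itga2b* made up 394.9 CPM of that sum, with *Gata1* at 94.9 and *Klf1* at 61.4 CPM against 2.06 and 0.649 in DN1 replicate 2. In the control the sum was 240.6 to 915.4 CPM, mostly *Pf4* (205.9 to 912.4 CPM). DN1 replicate 1 had more *Hey1* and *Heyl* than DN1 replicate 2, and the part of these cells in it was not tested. A setting chosen after seeing the data left out both DN1 replicate 1 and DN2b replicate 2. Members called over the control were then 3 for DN1, 4 for DN2a and 4 for DN2b.

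**Figure D3:**
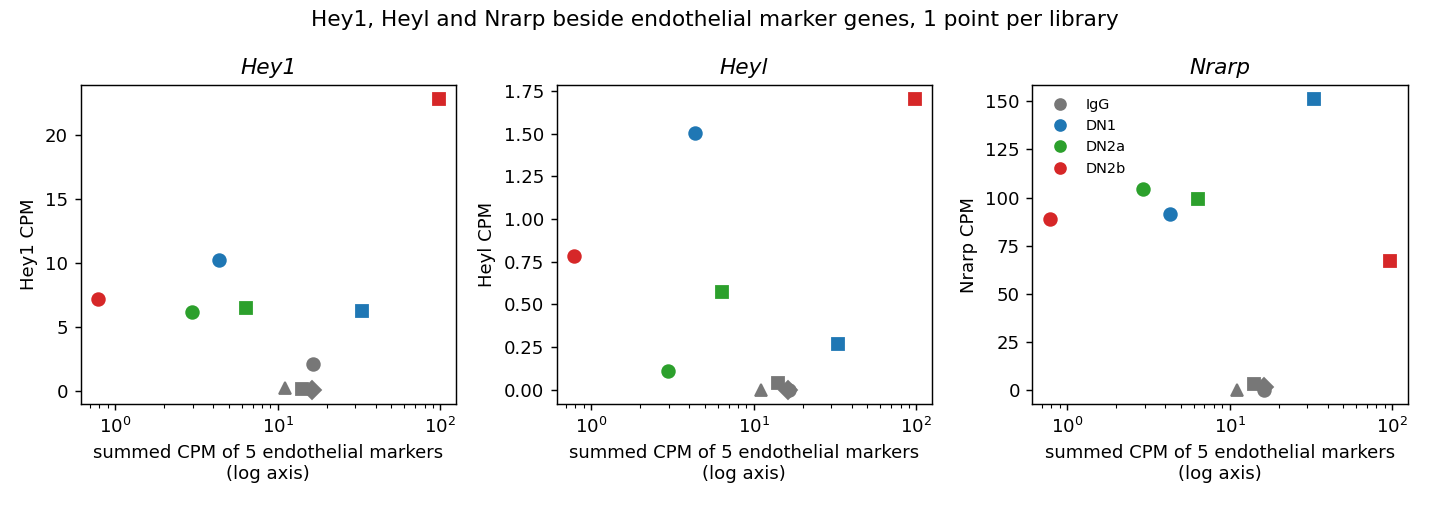
*Hey1*, *Heyl* and *Nrarp* in CPM (y axes) against the summed CPM of 5 endothelial markers (x axis, log scale), with 1 point per library in the color of its group and symbols for replicates as in the plot of members by library. DN2b replicate 2 lies at the far right, at 97.5 CPM of the markers, with the most *Hey1* and *Heyl*, and the control libraries lie at 11.1 to 16.4 CPM with little of either.

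The pathway that feeds these genes was read from lists of its other parts. Of the Notch receptors and ligands, 7 of 9 genes were tested and in DN1 over the control 1 was higher and 1 lower, beside 14.3% and 17% of all genes. *Notch3*, a receptor that is itself a Notch target in T cell precursors, was at 6.18 and 3.41 CPM in DN1 and 0.0485, 0.435, 0.0565 and 0.0337 in the control (log2FC 4.70, adjusted p = 0.00481, edgeR). *Notch2*, a receptor of myeloid and B cells as well, was lower at 43.3 ± 4.59 CPM (SD, n = 2) against 128.3 ± 43.4 (SD, n = 4; log2FC -1.81). *Notch1*, the main receptor for T cell fate, was at 80.0 and 87.2 CPM in DN1 and between 39.1 and 103.9 in the control, where the groups overlapped (log2FC 0.15, adjusted p = 0.744, edgeR).

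Among 14 genes that cleave Notch or add its sugars, 1 was higher and 8 were lower in DN1 than in the control (14.3% and 17% of all tested genes). The higher one was *Mfng*, a Fringe sugar transferase that tunes ligand choice, with a log2FC of 1.60 (standard error 0.31). *Aph1c*, a gamma-secretase subunit, fell from 23.2 ± 10.3 CPM (SD, n = 4) to 0.907 ± 0.783 (SD, n = 2; log2FC -4.94). *Aph1b* (-1.89), *Psen2* (-1.86) and *Lfng* (-1.75), a pair of secretase subunits and a Fringe enzyme, were next. *Aph1b* and *Aph1c* are near copies, so their counts are uncertain, and *Aph1b* was called in 1 of the 10 leave-one-out fits (adjusted p up to 0.214). *Psen2* was lost without DN1 replicate 2 (adjusted p = 0.107), *Mfng* without the same library (0.0538) and *Lfng* without DN1 replicate 1 (0.0588).

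Of 20 tested genes of the nuclear complex and its corepressors, 1 was higher in DN1 than in the control (*Hdac2*, a histone deacetylase, log2FC 1.16) and 2 were lower (*Ep300*, an acetyltransferase, -1.38, and *Maml1*, a Mastermind coactivator, -1.04), and 17 did not pass. Over the same control 4 were higher and 9 lower in DN2a (21.2% and 24.3% of all genes), and 4 higher and 8 lower in DN2b (19.9% and 22.5%). *Ep300* was called in 3 and *Maml1* in 7 of 10 leave-one-out fits, with adjusted p up to 0.25 and 0.185. Both counts are for DN1. Of the DN2b calls, *Hdac2*, *Maml1* and *Ctbp2* held in all 10 such fits, *Kat2b* in 3, *Spen* and *Tle3* in 4, and the rest in between. In the turnover list 0 of 10 genes were higher and 4 lower in DN1 (14.3% and 17% of all genes), namely *Dtx4* (log2FC -2.42), *Numb* (-1.90), *Mib2* (-1.10) and *Dtx3l* (-0.92). *Dtx4* and *Dtx3l* are relatives of *Dtx1*, which rose in the same libraries. *Numb*, an inhibitor of Notch, was lost without DN1 replicate 2 (adjusted p = 0.0625), *Dtx4* without DN1 replicate 1 (0.0534), and *Mib2* and *Dtx3l* were called in 7 and 2 of 10 such fits, with adjusted p up to 0.165 and 0.209.

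Among 7 further Hes and Hey relatives, *Hes2*, *Hes3*, *Hes7*, *Hey2* and *Helt* were too low to be tested. The 2 others fell. *Bhlhe41*, a repressor of the same helix-loop-helix class, was between 7.87 and 36.2 CPM in the control and at 0.133 and 0.0541 in DN1, at or under 3 reads a library (adjusted p = 0.00237, edgeR). *Bhlhe40* fell from 100.03 ± 38.8 CPM (SD, n = 4) to 12.7 ± 1.59 (SD, n = 2; log2FC -3.28). Of 10 Notch targets of early T cells, 5 were higher and 2 lower in DN1 (14.3% and 17% of all genes), and 4 were higher without *Il2ra*. *Tcf7*, a transcription factor that starts the T cell program, was at 283.9 and 271.6 CPM against 0.339 to 1.62 in the control (log2FC 7.87). *Gata3*, a further T lineage factor, had a log2FC of 6.06, *Notch3*, also a receptor above, 4.70, and *Ptcra*, the surrogate chain of the first T cell receptor, 4.18. *Il2ra* encodes CD25, on which the stages were sorted, and gives no result. The 2 lower genes were *Il7r*, lost without DN1 replicate 1 or 2 (adjusted p up to 0.146), and *Igf1r*, called in 2 of 10 leave-one-out fits (adjusted p up to 0.266).

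Over all 6 lists 26 genes were called in DN1 over the control, 7 higher and 19 lower. The lists held 7, 14, 20, 10, 2 and 10 tested genes, with *Notch1* and *Notch3* in 2 of them each. Of all 12221 tested genes 3834 were called, 14.3% higher and 17% lower. With scaling to library size 9 list genes were higher and 12 lower. Over all genes the higher share went from 45.7% to 61.4% with that scaling. Without DN1 replicate 2 the lists held 15 calls. In DN2b over DN1 3 list genes were called, all higher (1.01% of all genes were), *Gata3* (log2FC 1.76), *Bhlhe40* (2.37) and *Il2ra*, the last of which the sort had set. *Gata3* held in 2 and *Bhlhe40* in 3 of 10 leave-one-out fits (adjusted p up to 0.272 and 0.211), and without DN1 replicate 1 none of the 3 was called. *Notch3* and the *Hes*, *Hey*, *Nrarp* and *Dtx1* members were not called in that comparison. For the DN2 stages over the same control libraries, *Notch3* had a log2FC of 5.10 in DN2a and 5.94 in DN2b, and *Tcf7* of 8.82 and 8.97.

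**Figure D4:**
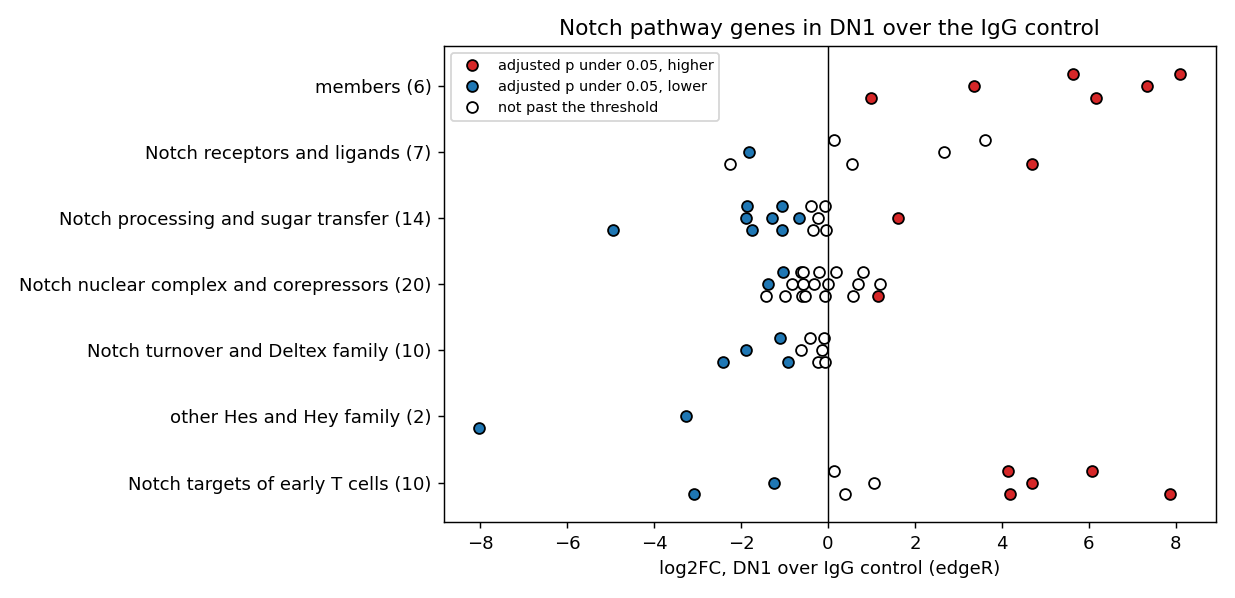
Log2FC in DN1 over the IgG control (x axis, edgeR) for the tested members and for 6 lists of Notch pathway genes (y axis, number tested in parentheses), 1 point per gene and *Notch1* and *Notch3* in 2 lists each. Red points are higher and blue points lower at an adjusted p under 0.05, and the 6 members are all red while the processing list holds 1 red and 8 blue points.

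To find genes with a like pattern, log2(CPM + 1) was correlated with each tested member across libraries, as a description with no test, since all points share the split between Notch and no Notch. Over 10 libraries *Hes1* was most like *Chst2* (Pearson r = 0.997), a sulfotransferase gene at 0.0804 CPM in the control and 9.05 in DN1 on average, and like *Klk8* and *Slc25a53*. *Nrarp* was most like *Lax1* (0.996) and *Tespa1* (0.995), both adaptor genes of lymphocyte receptor signaling, and *Dcaf8*. *Dtx1* was most like *A730098P11Rik* (0.994), *Chst2* and *Slc35f2*. *Hes6* was nearest to *Erg* (0.980), a blood stem cell transcription factor, *Tmco6* and *2310009A05Rik*, *Hey1* to *Itgae* (0.954), *Srp14* and *Pmepa1*, and *Heyl* to *Igf2* (0.949), *Fhl2* and *Nanos3*. Among the members, *Hes1* and *Dtx1* had an r of 0.993 and *Heyl* and *Nrarp* the lowest, 0.661.

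Within the 6 DN libraries, where the contrast with the control is gone, the r between members ranged from -0.824 to 0.832. *Hey1* and *Heyl* had an r of 0.832, and *Hes1* had 0.734 with *Hey1* and 0.605 with *Heyl*, whereas *Nrarp* had -0.777 with *Hey1* and -0.76 with *Heyl*, and *Hes6* had -0.824 with *Dtx1*. *Hes1* and *Dtx1*, the closest pair over all libraries, had 0.339. The nearest genes changed as well, to *Thbd*, *Tor4a* and *Kdm7a* for *Hes1* and to *Dnttip1*, *Hist3h2a* and *Ttc5* for *Hes6*. Those of *Hey1* were *Tmem158*, *Tctex1d4* and *Rnf6*, and those of *Heyl* were *Eif2ak3*, *5430417L22Rik* and *Wipf1*. These r, 0.979 or higher, rest on 6 points each and were picked among 12221 genes.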

How the data were processed

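Per the labels and methods, TruSeq Stranded Total RNA libraries were aligned by the authors to mm10 (first 36 bases, TopHat2 2.12) and counted with htseq-count (HTSeq 0.6.1p1, intersection-strict). The deposited raw counts per gene symbol were used with the 5 summary lines removed. The summary line for alignments that were not unique made up 16.4% to 30.1% of the total over all lines in a library. Cufflinks 2.2.1 is also listed in the submitters' processing notes. The gene annotation and strand setting are not given in the sources used here. Replicates derive from independent LSK isolates.

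CPM was taken over gene rows. A gene was tested if 2 or more libraries reached 1 CPM, in 1 fit of all 10 libraries and 4 groups (edgeR 4.0.16, quasi-likelihood test, TMM, prior count 0.125, R 4.3.3). Standard errors are the log2FC divided by the square root of F. Alternatives were DESeq2 1.42.0, scaling to library size, no filter, filterByExpr, fits of the compared groups alone, fits of the DN libraries with and without label year as a replicate block, control subsets, each library left out, and 1 setting added after seeing the data. DN2a and DN2b of a year carry the same date, and deviations of same-year libraries from stage means correlated at 0.0583 (DN1 and DN2a), 0.211 (DN1 and DN2b) and 0.465 (DN2a and DN2b) across genes. Marker sums, intervals and correlations were computed from CPM or counts. Named pathway genes were those past an adjusted p of 0.05, at most 4 per list and comparison by absolute log2FC, and *Mfng*, *Notch1*, *Il2ra*, *Il7r* and *Igf1r* in DN1 over the control were added after their values were seen. Members and lists were chosen with earlier results of these data known. The fit was tested on simulated counts. Gene coordinates are GENCODE vM21 (GRCm38), and promoters are from RefSeq. The genes most like *Nrarp* and *Dtx1* within the DN libraries are not reported here.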

Additional observations from a re-analysis of the deposited data

Results flagged for a closer look

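In the 4 control libraries, *Hey1* and *Hes6* each had 1 library far from the others by Dixon's criterion (gap over range above 0.829), which chance alone meets in about 1 of 20 groups. *Hey1* was at 2.13 CPM in IgG replicate 1, with the next at 0.226. *Hes6* was lowest in the same library, at 12.9 CPM with the next at 22.9. *Heyl* was at 0.0395 CPM in IgG replicate 2, a single read, with the others at 0. A single read among zeros meets the criterion by construction, so that this value carries no weight and the chance rate does not apply to it.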

How the results depend on the processing

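The calls of *Hes1*, *Nrarp* and *Dtx1* over the control held under every alternative run, with log2FC between 5.14 and 8.90. Members called in DN1 over the control numbered 6, and 3 with controls D1 and D2 alone or without DN1 replicate 1 and DN2b replicate 2. With only the groups compared they numbered 4 in DN1, 4 in DN2a and 5 in DN2b, where *Heyl* was not tested and *Hey1* had an adjusted p (edgeR) of 0.0828 in DN1 and 0.0598 in DN2a. Leaving out 1 library gave 3 to 6 in DN1, 4 to 6 in DN2a and DN2b, and 0 between stages. List genes called in DN1 over the control were 15 to 25 with a library left out, and in DN2b over DN1 0 to 4, 6 with DESeq2, 1 with only the groups compared, and 0 without DN1 replicate 1 and DN2b replicate 2. Signs turned for uncalled values only. *Hes6* in DN2b over DN1 was -0.030 with scaling to library size. Without DN1 replicate 1 and DN2b replicate 2, *Hey1* in DN2a over DN1 was 0.15 and *Hes1* in DN2b over DN1 -0.24. With a library or both of these left out, DN2a over DN1 ranged from -0.43 to 0.15 for *Hey1*, -0.37 to 0.036 for *Hes1*, -0.45 to 0.41 for *Nrarp* and -0.70 to 0.15 for *Dtx1*, DN2b over DN2a from -0.26 to 0.021 for *Hes6*, and DN2b over DN1 from -0.029 to 1.13 for *Heyl*, -0.83 to 0.029 for *Nrarp* and -0.24 to 0.48 for *Hes1*. The *Hes5* difference ranged from -0.048 to 0.079, and was 0.17 (exact permutation p = 0.748) with a pseudocount of 0.1. The cause was not tested. With label year as a replicate block, 0 members were called between stages, as without it, while calls over all genes went from 32 to 58 in DN2a over DN1 and from 187 to 233 in DN2b over DN1. With 2 libraries a stage, small changes between stages could not be detected.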
